A study of Rattus norvegicus with 6 samples.

Results

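NF-kB is a family of dimeric transcription factors, and the genes of its subunits and of the I-kappa-B proteins that bind them were examined in a rat mast cell line. The list held 10 genes: the subunit genes Rela, Rel, Nfkb1 and Nfkb2, the genes Nfkbia, Nfkbib and Nfkbie of the cytoplasmic inhibitors, and the genes Nfkbiz, Nfkbid and Bcl3 of the atypical, mainly nuclear I-kappa-B proteins. Members were taken from probe sets that the array annotation pairs with exactly 1 gene symbol, keeping the probe set with the highest mean over the 6 arrays. This gave 8 of the 10 genes, each with 1 probe set, out of 14506 genes named by the annotation. Rel and Nfkbid are not analysed here, nor is Relb, a further subunit gene outside this list.

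The cells were RBL-2H3, a rat basophilic leukaemia line used as a mast cell model. In every group they stably overexpressed wild-type Dectin-1, a receptor for beta-glucans, so cells without the introduced receptor were not compared. There were 2 arrays each of cells pretreated with the Syk inhibitor R406 and then stimulated with curdlan, of cells stimulated with curdlan alone, and of unstimulated control cells. Curdlan is a particulate beta-glucan, and Syk is a kinase that couples Dectin-1 to downstream signals. The sources used here give no dose, time or number of clones, and no group given R406 without curdlan was analysed. The values are log2 signals of whole-transcript Affymetrix arrays as processed by the authors, with array medians from 7.204 to 7.241. Of 15 measured mast cell markers, 12 had a mean signal above the median probe set, with group medians of 12.72 in R406 plus curdlan, 12.71 in curdlan and 12.73 in control arrays. Of 12 macrophage and neutrophil markers 2 were above it, of 8 lymphocyte markers 2, and of 9 fibroblast and epithelial markers 4. Among all these markers, those called were Tph1, the tryptophan hydroxylase gene of mast cells, and Itgam, an integrin gene of myeloid cells, both picked out after their values were seen. Tph1 rose with curdlan by 0.72 ± 0.0792 (limma adjusted p = 0.0295) and fell under R406 relative to curdlan alone by 0.69 ± 0.0792 (adjusted p = 0.0123). Its mean signal over the 6 arrays was 6.66, below the median probe set. Itgam fell under R406 relative to curdlan alone by 0.36 ± 0.0661 (adjusted p = 0.0408). These are the directions of Nfkbiz and Nfkbia, and their part in the results was not tested. The rise of Tph1 and the fall of Itgam were lost without each of the 6 arrays, and the fall of Tph1 without either curdlan or either R406 plus curdlan array, at adjusted p from 0.0589 to 0.206. Clec7a, the rat Dectin-1 gene, had changes of 0.15 ± 0.0931 with curdlan (limma adjusted p = 0.556) and -0.10 ± 0.0931 under R406 relative to curdlan alone (adjusted p = 0.604). Its mean signal over the 6 arrays was 7.14, just below the array medians. Whether these probes read the introduced copy was not tested.

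In unstimulated cells NF-kB dimers are held in the cytoplasm by I-kappa-B proteins. The I-kappa-B kinase complex, which Dectin-1 reaches through Syk and the Card9-Bcl10-Malt1 complex, marks these inhibitors for degradation, and the freed dimers enter the nucleus. Several genes of the system are themselves targets of NF-kB, above all Nfkbia, whose product returns dimers to the cytoplasm in a negative feedback loop. Nfkbiz and Bcl3 encode nuclear proteins that bind p50 or p52 homodimers on DNA and alter which target genes are transcribed.

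The promoter windows of the members are shown because NF-kB acts through kappa-B sites and several of these genes are known targets of NF-kB. Each window runs from 250 bases before to 50 bases after the start of a RefSeq transcript on the rat assembly GRCr8, and all 8 measured genes had a window. The sequences printed here are those of the genes with a change that passed the test, printed 5′ to 3′ in the direction of transcription, with each match to the kappa-B consensus in capitals.
Nfkbiz, chr11:58251471-58251770, plus strand: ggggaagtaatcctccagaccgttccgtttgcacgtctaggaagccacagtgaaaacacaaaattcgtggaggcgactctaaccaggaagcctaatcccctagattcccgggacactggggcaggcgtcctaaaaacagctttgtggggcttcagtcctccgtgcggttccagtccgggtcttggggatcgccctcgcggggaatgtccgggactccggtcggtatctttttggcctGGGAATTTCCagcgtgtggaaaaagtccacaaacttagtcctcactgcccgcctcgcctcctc
Nfkbia, chr6:78597023-78597322, minus strand: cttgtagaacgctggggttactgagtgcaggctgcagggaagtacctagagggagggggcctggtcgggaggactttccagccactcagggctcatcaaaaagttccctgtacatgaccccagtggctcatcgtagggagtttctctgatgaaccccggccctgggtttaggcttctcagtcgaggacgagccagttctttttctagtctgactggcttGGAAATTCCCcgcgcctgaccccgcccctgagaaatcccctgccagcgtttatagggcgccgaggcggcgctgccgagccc
In Nfkbiz the match began 13 bases before the transcript start. In Nfkbia it lay on the opposite strand and began 31 bases before the start.

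Of the 8 measured genes, 6 had a kappa-B match on either strand of their window, against 7.51% of all 33469 RefSeq windows of the same length. The matches of the other 4 genes are printed with 15 bases on each side, since these genes carry such a match and passed the test in no comparison described here.
Nfkb1: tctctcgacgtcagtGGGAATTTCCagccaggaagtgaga
Nfkb2: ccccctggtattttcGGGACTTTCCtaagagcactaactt
Bcl3: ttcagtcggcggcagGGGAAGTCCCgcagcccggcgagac
Nfkbie: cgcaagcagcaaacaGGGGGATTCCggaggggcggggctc
The 10 bases in capitals were the same in Nfkb1 as in Nfkbiz. The match began 20 bases before the start in Nfkb2, 38 in Bcl3 and 164 in Nfkbie, and at base 4 after the start in Nfkb1. The transcript start of the window lay inside the annotated gene for Nfkbia, by 235 bases, for Nfkb1, by 435, for Nfkb2, by 2364, and for Nfkbiz, by 1, so these windows belong to 1 transcript start each and not to the gene's outermost start. For the other 4 genes it was the gene's own start. The windows of Rela and Nfkbib held none. The nuclear factor of activated T cells core GGAAAA was found in the windows of Nfkbiz and Nfkbib and in 24.7% of all windows, and the AP-1 motif TGANTCA in those of Nfkbie and Nfkb2 and in 7.33% of all windows. The cyclic AMP response element TGACGT was found in Nfkb1 and in 7.94% of all windows, and the SP1 box GGGCGG in 6 of the 8 windows and 33.1% of all. Both strands were searched, and no matches to different motifs overlapped in these windows. A match describes the letters of the window and is not evidence of binding.

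**Figure D1:**
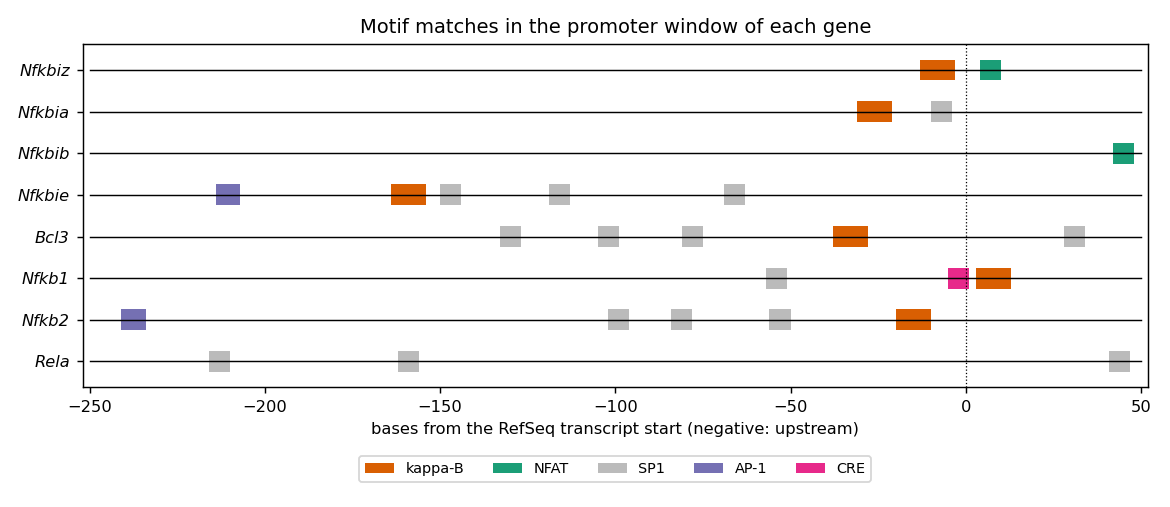
Position of motif matches in the 300-base promoter window of each measured gene, in bases from the RefSeq transcript start (dotted line), with upstream bases negative. Bars mark matches to the kappa-B consensus, GGAAAA (NFAT), TGANTCA (AP-1), TGACGT (CRE) and GGGCGG (SP1) on either strand. A kappa-B match lies in 6 of the 8 windows, and those of Rela and Nfkbib have none.

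The first comparison asked how the genes differ between curdlan-stimulated and unstimulated cells, all of which overexpressed Dectin-1. With curdlan, 2 of the 8 measured genes rose and 0 fell: Nfkbiz, which encodes I-kappa-B zeta, by a 3.45-fold change, and Nfkbia, which encodes I-kappa-B alpha, by a 1.67-fold change. None of the 3 measured subunit genes, Rela, Nfkb1 and Nfkb2, passed, nor did the genes of the other cytoplasmic inhibitors. The threshold for a rise or fall was an adjusted p under 0.05 (Benjamini-Hochberg) in a limma fit of all 29214 probe sets. In such bulk samples, fewer cells with a transcript and less of it per cell cannot be told apart. Across all probe sets 1.59% were called in this comparison, 1.04% higher and 0.551% lower. The median change of the 8 genes was 0.00, and that of all probe sets was -0.011.

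Nfkbiz (probe set 10750848; chromosome 11, 58251720 to 58279767 on GRCr8) had log2 signals of 10.12 and 10.23 with curdlan, against 8.41 and 8.36 in control arrays. Both curdlan arrays lay far above both controls. The change was 1.79 ± 0.073 log2 units (SE, 2 arrays per group), with a 95% interval from 1.60 to 1.97 (limma, Benjamini-Hochberg adjusted p = 0.00215).

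Nfkbia (probe set 10890024; chromosome 6, 78593844 to 78597307) had log2 signals of 10.86 and 10.87 with curdlan, against 10.13 and 10.12 in control arrays. The groups did not overlap, and each pair of arrays was nearly equal. The change was 0.74 ± 0.044, with a 95% interval from 0.63 to 0.85 (limma adjusted p = 0.00591), so the intervals of Nfkbiz and Nfkbia were apart. The call of Nfkbia was lost without control replicate 1 (adjusted p = 0.0597), control replicate 2 (0.0663), curdlan replicate 1 (0.0661) or curdlan replicate 2 (0.077), while its change stayed between 0.73 and 0.75. That of Nfkbiz held without each of the 6 arrays, at adjusted p from 0.0144 to 0.0486.

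Nfkbib and Nfkbie encode I-kappa-B beta and epsilon, which hold dimers in the cytoplasm as I-kappa-B alpha does. Nfkbib had log2 signals of 11.55 and 11.48 with curdlan, against 11.60 and 11.53 in control arrays. Nfkbie had 9.21 and 9.10 with curdlan, against 9.17 in both control arrays. For both genes the groups overlapped, and the 95% intervals of the change ran from -0.18 to 0.08 for Nfkbib (adjusted p = 0.757) and from -0.17 to 0.14 for Nfkbie (adjusted p = 0.955). The interval of Nfkbia lay wholly above both.

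Bcl3 encodes the atypical I-kappa-B protein Bcl-3, a cofactor of p50 and p52. It had log2 signals of 7.38 and 7.34 with curdlan, against 7.45 and 7.59 in control arrays. The curdlan arrays lay below the controls without overlap, but the change of -0.16 ± 0.0628 did not pass (adjusted p = 0.337). These signals were close to the array medians.

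Among the subunits, Nfkb1 encodes p105, the precursor of p50. It had log2 signals of 10.39 and 10.51 with curdlan, against 10.21 and 10.28 in control arrays. The groups did not overlap, and the change of 0.21 ± 0.0605 did not pass over all probe sets (adjusted p = 0.212, unadjusted p = 0.0168 in the limma fit). Nfkb2, which encodes p100, the precursor of p52 in the noncanonical pathway, had 8.49 and 8.55 with curdlan, against 8.55 and 8.45 in control arrays. Rela, which encodes the transactivating subunit p65, had 12.03 and 12.09 with curdlan, against 12.07 and 12.09 in control arrays. Both overlapped between groups, with 95% intervals from -0.12 to 0.16 for Nfkb2 (adjusted p = 0.93) and from -0.14 to 0.10 for Rela (adjusted p = 0.892). In all, the curdlan and control arrays did not overlap for 4 of the 8 genes, 3 higher and 1 lower, against 43.1% of all probe sets.

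**Figure D2:**
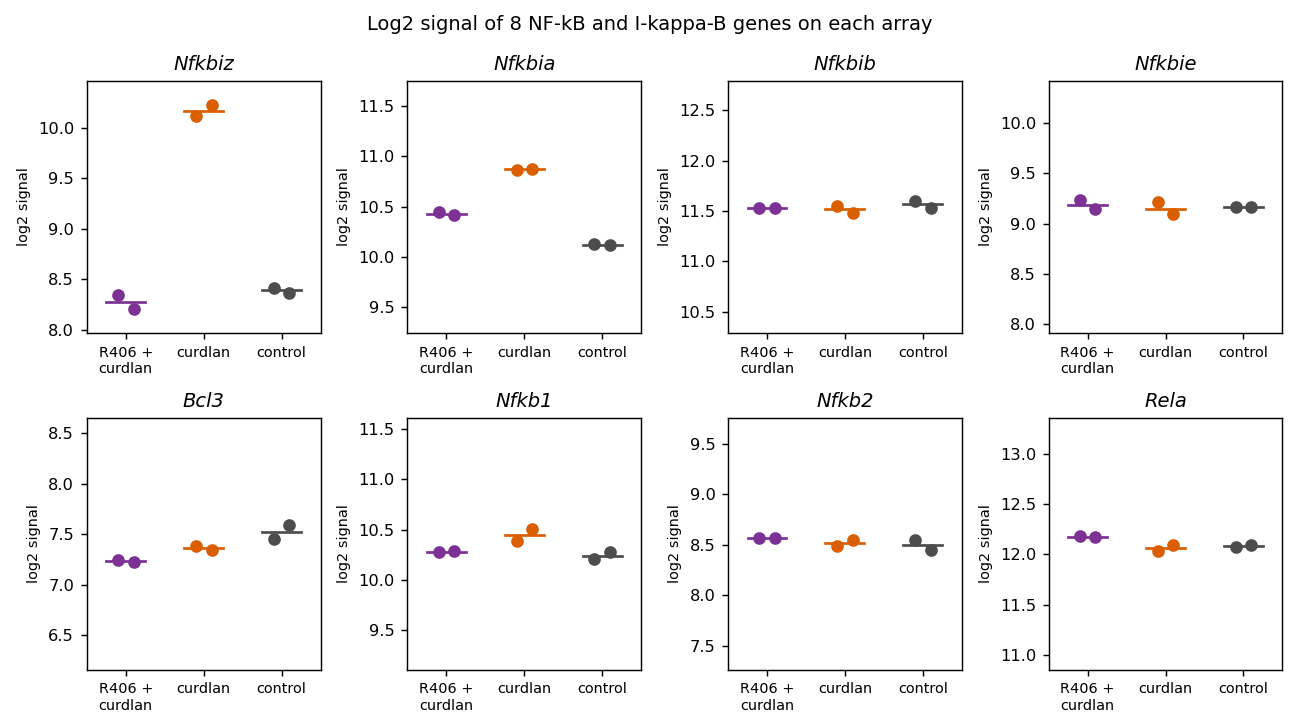
Log2 signal (vertical axis, the same span of 2.5 units in every panel) of each measured gene on each of the 6 arrays, with 2 points per group for R406 plus curdlan, curdlan and control cells and a line at the group mean. Nfkbiz had means of 8.27, 10.17 and 8.39 in these groups and Nfkbia 10.43, 10.87 and 10.12, and the other 6 genes stayed within 0.38 log2 units over all arrays.

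The second comparison asked how the levels differ when the Syk inhibitor R406 is given before curdlan. Syk activity was not measured here. Relative to curdlan alone, 2 of the 8 genes fell under R406 and 0 rose, and they were again Nfkbiz and Nfkbia. Nfkbiz was 3.74-fold lower and Nfkbia 1.35-fold lower. Across all probe sets 7.25% were called here, 4.02% higher and 3.23% lower. This comparison and the preceding one share the curdlan arrays, so the changes of a gene in them are not independent. The median change was -0.06 over the 8 genes and -0.002 over all probe sets.

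Nfkbiz had log2 signals of 8.34 and 8.20 under R406 plus curdlan, against 10.12 and 10.23 with curdlan alone. Its change was -1.90 ± 0.073, with a 95% interval from -2.09 to -1.72 (limma adjusted p = 0.000829), and it passed without each of the 6 arrays. Nfkbia had 10.45 and 10.42 under R406 plus curdlan, against 10.86 and 10.87 with curdlan alone. Its change was -0.43 ± 0.044, with a 95% interval from -0.55 to -0.32 (limma adjusted p = 0.00918), which lay apart from that of Nfkbiz. The call of Nfkbia was lost without curdlan replicate 1 (adjusted p = 0.0606), curdlan replicate 2 (0.0571), R406 plus curdlan replicate 1 (0.0796) or R406 plus curdlan replicate 2 (0.0934).

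The remaining genes had smaller differences under R406. Rela had 12.18 and 12.17 under R406 plus curdlan, against 12.03 and 12.09 with curdlan alone, a change of 0.12 ± 0.0469 without overlap (adjusted p = 0.234). Nfkb1 had 10.28 and 10.29 under R406 plus curdlan, against 10.39 and 10.51 with curdlan alone, a change of -0.17 ± 0.0605 without overlap (adjusted p = 0.194). These 2 subunit genes thus lay on opposite sides of the curdlan level, and neither passed. Nfkb2 had 8.57 in both R406 plus curdlan arrays, against 8.49 and 8.55 with curdlan alone, with a 95% interval of the change from -0.09 to 0.19. The intervals were -0.12 to 0.14 for Nfkbib, whose R406 plus curdlan arrays both read 11.53, and -0.11 to 0.19 for Nfkbie, whose arrays read 9.23 and 9.15. Bcl3 had 7.24 and 7.22 under R406 plus curdlan, against 7.38 and 7.34 with curdlan alone, a change of -0.13 ± 0.0628 (adjusted p = 0.306). Arrays of the 2 groups did not overlap for 6 of the 8 genes, 2 higher and 4 lower, against 53.3% of all probe sets.

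Between R406 plus curdlan and unstimulated control cells, 1 of the 8 genes rose and 0 fell: Nfkbia was 1.24-fold higher. Its log2 signals of 10.45 and 10.42 under R406 plus curdlan stood above 10.13 and 10.12 in control arrays, without overlap. The change was 0.31 ± 0.044, with a 95% interval from 0.20 to 0.42 (limma adjusted p = 0.0432). Across all probe sets 2.23% were called in this comparison, 1.44% higher and 0.791% lower, and it shares its arrays with the other comparisons. On the log2 scale the 2 R406 plus curdlan arrays stood at 43.8% and 39.2% of the rise of Nfkbia with curdlan. The call was lost without each of the 6 arrays, at adjusted p from 0.0936 without curdlan replicate 1 or 2 to 0.237 without R406 plus curdlan replicate 2, while the change stayed between 0.29 and 0.32.

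Nfkbiz had 8.34 and 8.20 under R406 plus curdlan, against 8.41 and 8.36 in control arrays, so both arrays lay just below the controls. The 95% interval of its change ran from -0.30 to 0.07 (adjusted p = 0.442) and did not meet that of Nfkbia. In percent of its rise with curdlan, the 2 arrays stood at -2.29% and -10.5%. Bcl3 had 7.24 and 7.22 under R406 plus curdlan, against 7.45 and 7.59 in control arrays, a change of -0.30 ± 0.0628 without overlap that did not pass (adjusted p = 0.0899). Bcl3 was thus highest in control, between in curdlan and lowest in R406 plus curdlan arrays, with no neighbouring pair of groups passing the test. For the other 5 genes the changes lay between -0.03 for Nfkbib and 0.10 for Rela, and none passed. Arrays did not overlap for 6 of the 8 genes, 4 higher and 2 lower, against 53.5% of all probe sets.

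**Figure D3:**
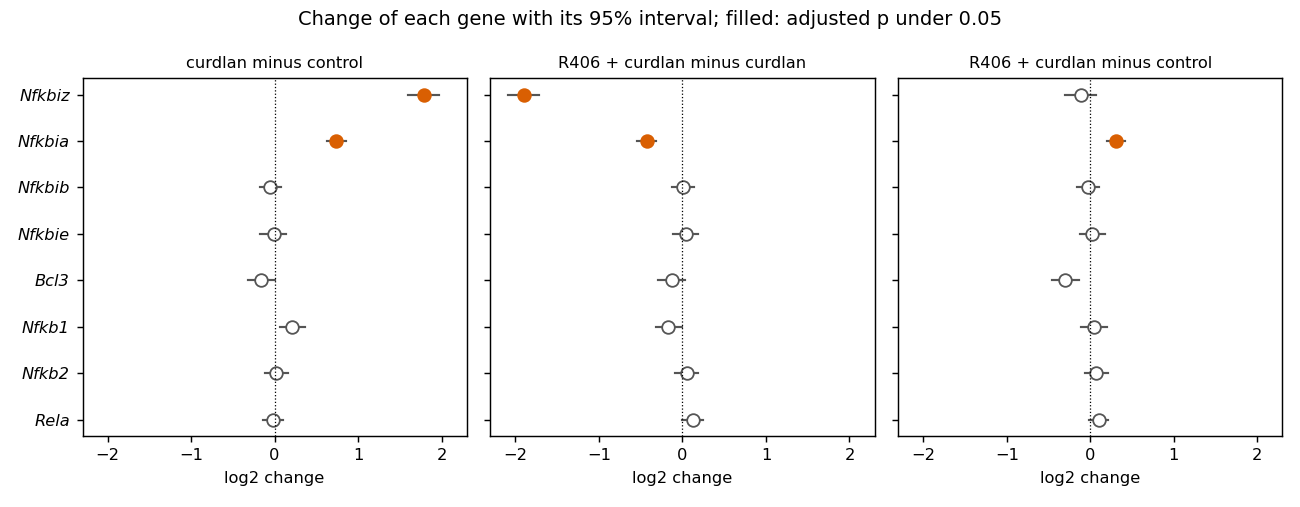
Log2 change of each measured gene (horizontal axis) for curdlan over control cells, and for R406 plus curdlan over curdlan and over control cells, in that order. Circles are estimates from the limma fit with 2 arrays per group, lines are 95% intervals, and filled circles passed at an adjusted p under 0.05. Nfkbiz moved by 1.79, -1.90 and -0.11 and Nfkbia by 0.74, -0.43 and 0.31.

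The genes most alike in pattern to these members were sought by the distance between signals centred on the control mean over the 6 arrays, with 1 probe set per gene. The genes nearest to Nfkbiz were Ccl7, which encodes a monocyte chemokine, at a distance of 0.351, Tnfrsf12a, the receptor gene for the cytokine TWEAK, at 0.437, and Csrnp1, which encodes a nuclear protein, at 0.567. The median distance of all genes from Nfkbiz was 2.58. Ccl7 had group means of 7.27 in R406 plus curdlan, 8.87 in curdlan and 7.23 in control arrays, and Tnfrsf12a had 8.83, 10.76 and 9.15 in the same groups. The genes nearest to Nfkbia were Id2, which encodes an inhibitor of helix-loop-helix transcription factors, at 0.203, Spn, which encodes the sialoglycoprotein CD43, at 0.212, and Zbtb1, which encodes a zinc finger protein, at 0.238, where the median of all genes was 1.19. Id2 had 12.02 in R406 plus curdlan, 12.29 in curdlan and 11.67 in control arrays, and Spn had 10.35, 10.59 and 9.99. Zbtb1 had 9.98, 10.57 and 9.82. For these genes the R406 plus curdlan mean lay between the other means, by changes against control of 0.34 for Id2, 0.36 for Spn and 0.16 for Zbtb1. The genes were chosen for their likeness on these same arrays, so their pattern is a description and was given no test.

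**Figure D4:**
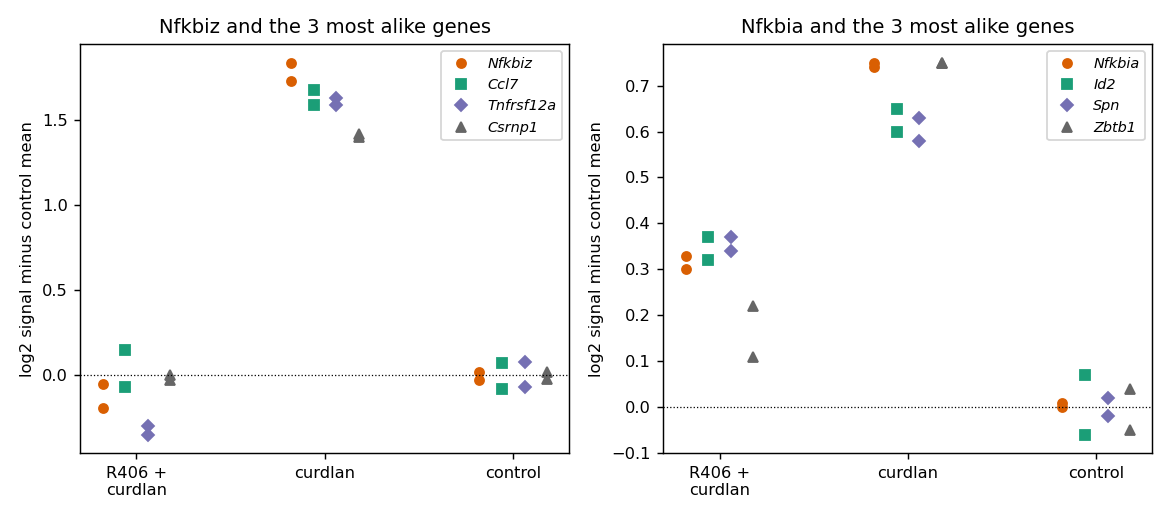
Log2 signal minus the control mean (vertical axis) of Nfkbiz and Nfkbia with the 3 genes nearest to each, for the 2 arrays of each group. The vertical scales of the panels differ. Around Nfkbiz the R406 plus curdlan arrays sit near or below the control level, and around Nfkbia they sit between the control and curdlan arrays.

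Of the kinases and adaptors that lead to I-kappa-B degradation, 25 of 29 listed genes were measured. With curdlan 0 rose and 0 fell, and their changes lay between -0.33 and 0.32. Under R406 relative to curdlan alone 1 rose and 1 fell, where 7.25% of all probe sets were called in either direction. Prkcq, which encodes protein kinase C theta, rose by 0.24 ± 0.0455 (adjusted p = 0.0442), and Map3k14, which encodes the kinase NIK that drives processing of p100, fell by 0.33 ± 0.0633 (adjusted p = 0.0445). Both calls were lost without each of the 6 arrays, at adjusted p from 0.0724 to 0.22, and for Map3k14 the mean over its probe sets did not pass (adjusted p = 0.154). Syk itself had log2 signals of 9.09 in both R406 plus curdlan arrays, 9.01 and 9.03 with curdlan and 9.17 and 9.12 in control arrays, and passed in no comparison. The list of I-kappa-B degradation and NF-kB regulators had 0 of 20 genes called in the curdlan and the R406 comparisons, with a median change of -0.05 with curdlan and 0.04 under R406.

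Of the genes listed as negative feedback on NF-kB, 13 were measured, and with curdlan 0 rose and 1 fell. That gene was Trib3, a pseudokinase gene better known as a target of the stress factor ATF4, at -2.40 ± 0.0648 (adjusted p = 0.000676). Tnfaip3 is not analysed here. Between R406 plus curdlan and control cells 1 rose and 1 fell. These were Tnip1 at 0.40 ± 0.058 (limma adjusted p = 0.0432) and Trib3 at -1.18 ± 0.0648 (adjusted p = 0.00681). Their calls in that comparison were lost under 10 and 4 of 14 alternative settings. With curdlan Tnip1 had a change of -0.04 ± 0.058 (adjusted p = 0.844). Under R406 relative to curdlan alone 4 rose and 0 fell: Trib3 at 1.22 ± 0.0648, Peli1, which encodes a ubiquitin ligase, at 0.58 ± 0.0554, Tnip1, which encodes a partner of the ubiquitin-editing enzyme A20, at 0.44 ± 0.058, and Irak3, which encodes an inhibitory kinase-like protein, at 0.36 ± 0.0543 (adjusted p from 0.00207 for Trib3 to 0.0254 for Irak3). Of all probe sets 4.02% were called higher in this comparison. Tnip1 had 8.53 and 8.61 under R406 plus curdlan, against 8.14 and 8.12 with curdlan alone. Trib3 passed without each of the 6 arrays. The calls of Peli1 and Tnip1 were lost without either curdlan or either R406 plus curdlan array, at adjusted p from 0.0542 to 0.13, and that of Irak3 without each of the 6 arrays.

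Of the listed target genes of NF-kB, 29 were measured. With curdlan 7 rose and 0 fell, and 0 rose and 10 fell under R406 relative to curdlan alone. Of all probe sets, 1.04% were called higher with curdlan and 3.23% lower under R406. The median changes of the targets were 0.04 and -0.13, against -0.011 and -0.002 over all probe sets. Under the alternatives the count of targets that fell under R406 relative to curdlan alone was 7 to 11. The largest 4 in both comparisons were Ccl2, Ier3, Tnf and Junb, whose rises with curdlan were 3.77 ± 0.0613, 1.41 ± 0.0548, 1.40 ± 0.0763 and 1.16 ± 0.0462 (adjusted p from 0.000402 to 0.00503). Their changes under R406 relative to curdlan alone were -4.39 ± 0.0613, -3.30 ± 0.0548, -2.70 ± 0.0763 and -1.79 ± 0.0462 (limma adjusted p from 6.09e-05 to 0.000346). Against control cells, 0.791% of all probe sets were called lower under R406 plus curdlan. Of the targets, 6 were lower there and 0 higher. These 4 were among them, by changes of -0.62 ± 0.0613 for Ccl2, -1.89 ± 0.0548 for Ier3, -1.30 ± 0.0763 for Tnf and -0.63 ± 0.0462 for Junb (adjusted p from 0.000987 to 0.0194), whereas Nfkbia was higher. The others, named after their values were seen, were Ptgs2, which encodes an inducible cyclooxygenase, at -1.37 ± 0.0547 (adjusted p = 0.00271), and Birc3, which encodes a ubiquitin ligase that limits cell death, at -0.64 ± 0.0648 (adjusted p = 0.0203). Neither passed with curdlan, at 0.04 ± 0.0547 for Ptgs2 (adjusted p = 0.833) and 0.16 ± 0.0648 for Birc3 (adjusted p = 0.376). The other 3 that rose with curdlan, named after their values were seen, were Icam1, Gadd45b and Irf1. Their changes between R406 plus curdlan and control cells were -0.28, 0.15 and 0.24, and none passed. Without 1 array the count of targets raised by curdlan was 3 to 4: Icam1, Gadd45b and Irf1 were lost without each of the 6 arrays and Tnf without each curdlan or control array. The falls below control of Ccl2 and Birc3 were lost without each of the 6 arrays, that of Tnf without either control array and those of Junb and Ptgs2 without either control or either R406 plus curdlan array, at adjusted p from 0.052 to 0.151, and that of Ier3 held in all 6.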

How the data were processed

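Total RNA of 6 samples was hybridised to whole-transcript rat Affymetrix arrays, per the labels' protocols. Each array has a log2 signal for every probe set as deposited. The submitters' processing notes name Affymetrix Expression Console. Its version and its background correction and summarisation steps are not stated in the sources used here. Base 2 was taken from the highest values, which correspond to 21155 to 21772 as linear signals. Array medians were nearly equal, and a between-array normalization would remove changes shared by most transcripts. No detection call was used, so changes of dim genes may be understated. Precision is limited by the number of arrays.

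Groups came from the sample titles. All arrays were fitted in 1 limma model (R 4.3.3, limma 3.58.1) with 3 residual and 2.155 prior degrees of freedom, tested on simulated data, without a filter. P-values were adjusted over 29214 probe sets, of which 15310 had 1 symbol. Intervals are 95% intervals of single changes, unadjusted. Nothing in the labels says that replicate arrays stem from separate cultures, so p-values measure only their spread, possibly technical. Replicate arrays correlated at 0.9975 to 0.9981 and no 2 arrays were duplicates (at most 39 identical values).

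The members and lists were chosen with earlier results of these data known. Named genes were the members, the 4 called genes of each list with the largest change in the curdlan and R406 comparisons, the 3 genes nearest in pattern to Nfkbia and to Nfkbiz, Clec7a and Syk. Alternatives were the replicate block, other scalings, an intensity trend, a signal filter, a stricter threshold, other probe set summaries and leaving out each array. Promoter sequences and gene positions are from RefSeq (GRCr8).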

Additional observations from a re-analysis of the deposited data

How the results depend on the processing

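Each change of the 8 genes was recomputed under 14 alternatives in 3 comparisons. Of the 336 values, 72 repeat another one by construction, since each of the 8 genes has 1 probe set and leaving out an array of the third group gives the fit of the 2 groups alone. Of the remaining 264 values, 247 kept their side of the threshold, 15 lost a call, 2 gained one and 0 called changes turned their sign. All 15 losses were of Nfkbia. Without single arrays, 1 to 2 genes were called higher with curdlan, 1 to 2 lower under R406 relative to curdlan alone, and 0 higher in R406 plus curdlan than in control cells, with 0 in the opposite directions. In R406 plus curdlan against control cells, 0 genes were called higher with the replicate number as a block (adjusted p of Nfkbia = 0.0943), with the arrays of the 2 groups only, and at an adjusted p under 0.01. With an intensity trend in the empirical Bayes step, 1 gene was called higher under R406 relative to curdlan alone, which was Rela (adjusted p = 0.0404). With probe sets under the overall median signal left out, 1 gene was called lower in R406 plus curdlan than in control cells, which was Bcl3 (adjusted p = 0.0239). The cause was not tested, other than that fits without an array have fewer degrees of freedom.

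Same-numbered arrays deviated together at correlations of -0.115, -0.00454 and 0.113, so the replicate numbers were not taken as pairs. The replicate block changed no other call of a member, and moved the count over all probe sets to 102 with curdlan, 1129 under R406 relative to curdlan alone and 62 in R406 plus curdlan against control cells, where the fit without it gave 465, 2118 and 652. Over the alternatives that kept both arrays of the compared groups, these counts ran from 68 to 1572, 561 to 3767 and 62 to 2341. The 1572 came from the signal filter, which tested only 14607 probe sets, and the 561 from the stricter threshold. The second-brightest probe set was not run, since each of the 8 genes has 1. The alternatives for other named genes and list counts were added after seeing the data, and no called change turned its sign. Of the list counts, that of targets lowered in R406 plus curdlan against control cells was 6, and 1 to 9 under the alternatives.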
